A study of Mus musculus with 23 samples.

Results

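Maturation genes and the IL-12 subunit gene Il12b were followed in CD103+ type 1 conventional dendritic cells (cDC1) sorted from mouse melanomas. The set was a list of 37 gene symbols that are commonly used to describe a mature dendritic cell, covering costimulation, checkpoint ligands, migration, cytokines and further genes of the mature state. Of these, 35 were found among the 13572 gene rows of the count table, and Il4i1 and Apol7c were not analysed here. All mice were wild-type C57BL/6 animals, with age and sex not stated in the labels. The control group of 4 mice had received BRAFV600E melanoma cells under the skin. The other 4 mice had received BRAFV600E cells with a knockout of Ptgs1 and Ptgs2, the genes of the cyclooxygenases that start prostaglandin synthesis, and their tumours are called PGE2-deficient below. Host cells in both groups kept Ptgs1 and Ptgs2, the level of prostaglandin E2 (PGE2) is not part of these data, and whether the knockout line was 1 clone is not stated in the labels. Tumours were taken 6 days after injection, and the gate kept CD103+ CD11b- cells among live CD11c+ MHC-II+ leukocytes. Each library came from a pool of 10 sorted cells and was prepared with Smart-seq3, which reads whole transcripts from minute amounts of RNA, with 12 control and 11 PGE2-deficient libraries, up to 3 per mouse.

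A dendritic cell that has taken up antigen and received an activating signal matures. It lowers its uptake of antigen, raises the B7 molecules CD80 and CD86 and the receptor CD40 that deliver costimulation to T cells, and acquires CCR7, the chemokine receptor that guides it along lymphatic vessels to the lymph node. The same state carries molecules that restrain T cells, such as PD-L1 (encoded by Cd274), PD-L2 (Pdcd1lg2) and CD200, and is often described by the cytoskeletal gene Fscn1 and by Socs2 and Relb. cDC1 are a main source of interleukin-12, a dimer of the p40 subunit encoded by Il12b and the p35 subunit encoded by Il12a, which drives interferon gamma production in T cells and NK cells.

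The upstream sequences of 4 members are shown because they had the largest log2 fold changes among those tested. Cacnb3 is shown before both of its RefSeq starts. They come from the RefSeq promoter table of GRCm38.p6, which held entries for 24 of the 37 members, 22 of them in the count table, with 30 start sites in all. Each is the plus strand, 5′ to 3′, and ends just before a RefSeq start, or before the first annotated exon base where that came earlier. Capitals mark matches to any of the searched motifs, and all 4 genes lie on the plus strand.
Il12b, chr11:44399913-44400062: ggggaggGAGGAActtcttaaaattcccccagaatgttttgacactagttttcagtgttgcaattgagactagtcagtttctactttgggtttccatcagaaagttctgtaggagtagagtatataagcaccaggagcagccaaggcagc
Cacnb3, first start, chr15:98632178-98632327: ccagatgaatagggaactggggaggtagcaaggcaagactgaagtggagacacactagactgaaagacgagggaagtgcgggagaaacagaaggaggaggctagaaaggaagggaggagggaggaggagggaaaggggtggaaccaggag
Cacnb3, second start, chr15:98634617-98634766: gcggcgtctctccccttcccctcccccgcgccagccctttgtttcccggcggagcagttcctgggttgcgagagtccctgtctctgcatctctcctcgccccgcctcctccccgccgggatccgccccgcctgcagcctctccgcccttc
Serpinb6b, chr13:32965111-32965208: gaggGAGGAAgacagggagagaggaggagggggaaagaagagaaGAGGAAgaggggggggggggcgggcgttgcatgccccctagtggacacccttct
Fscn1, chr5:142960205-142960342: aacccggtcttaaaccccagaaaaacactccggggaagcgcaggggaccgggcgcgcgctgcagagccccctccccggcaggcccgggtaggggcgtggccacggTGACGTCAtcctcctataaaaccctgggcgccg
The capitals in Il12b and Serpinb6b are the PU.1 core GAGGAA, which stood within 250 bases upstream of 8 of the 30 member starts and of 23.3% of all 32851 starts in the table. No searched motif was found in the Cacnb3 windows. The capitals in Fscn1 are the cyclic AMP response element TGACGTCA, from 45 to 38 bases before its RefSeq start. That element was found at 1 of the 30 member starts, that of Fscn1, and at 1.55% of all starts. The other motifs were the kappaB consensus (3 of 30 member starts, 5.0% of all), the AP-1 site TGANTCA (3 of 30, 6.75%), the interferon-stimulated response element core (2 of 30, 2.98%) and the Ets-IRF composite element (1 of 30, 2.30%). Both strands were searched, matches may overlap, and a match is a description of these letters only. In the annotation of the same build, Il12b (ENSMUSG00000004296) is a protein-coding gene on chromosome 11 from 44400063 to 44414033. Cacnb3 (ENSMUSG00000003352) lies on chromosome 15 from 98630840 to 98644529. Serpinb6b (ENSMUSG00000042842) lies on chromosome 13 from 32965209 to 32979067, and Fscn1 (ENSMUSG00000029581) on chromosome 5 from 142960343 to 142973185.

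Libraries held 25571 to 98554 counts (median 49506), and the summed libraries of a mouse 101017 to 230478. Most members were therefore read from few counts. Levels are given as CPM, counts scaled to the library size, taken as the total over tested genes unless all counts are named. All 12 cDC1 marker genes were detected in both groups, at 2259 to 4312 CPM of all counts per mouse in the control group and 4981 to 6716 in the PGE2-deficient group. Markers of other cells moved with the groups. The 7 cDC2 markers had 174 control against 43 PGE2-deficient counts, macrophage markers 122 against 23 (C1qb at 0 in the latter), pDC markers 108 against 1 (4 of 5 genes at 0 in the latter) and T cell markers 11 against 56 (Trbc1 at 0 in the former). Macrophage, pDC and T cell markers together reached 10 counts in 9 libraries, 6 control and 3 PGE2-deficient, and fitted values without these 9 marker-positive libraries are given where a call ended or the value moved by over 1.5 times. Beyond those values, the part of other cells in the results was not tested. In sums over sorted cells, fewer cells of a type and less RNA per cell cannot be told apart.

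Across the whole set, most members had higher values in cDC1 from PGE2-deficient tumours, but few differences exceeded the spread between mice. Il12b, Cacnb3 and Serpinb6b were called higher, that is, they had an adjusted p under 0.05 in edgeR's quasi-likelihood test on the summed counts of the 4 mice against 4. These were 3 of the 13 members with enough counts to test, beside 2.7% of all 2076 tested genes. No tested member was called lower, beside 2.26% of all tested genes. At an unadjusted p under 0.05, 6 members were higher (9.63% of all) and 1, Cd83, lower (9.1% of all). In 2 of the 13, Cacnb3 and Serpinb6b, all PGE2-deficient mice lay above all control mice (4.91% of all tested genes), and in no tested member below them (5.73%). Members that reached the count filter through 1 high group had to differ, so a fit without a filter was read beside it. There 27 of the 35 members had a positive fold change, where 51.8% of all 13311 genes with a count did, and the median log2 fold change was 0.92 over members and 0.04 over all genes. In that fit 5 members were called higher (Il12b, Cacnb3, Serpinb6b, Fscn1 and Relb; 0.826% of all genes) and none lower (0.631%). Unadjusted p was under 0.05 for 16 members upwards (4.97%) and 2 downwards (4.33%), groups did not overlap upwards in 2 (2.5%) and downwards in 1, Cst7 (1.81%). With a filter of 20 counts in total over all mice, 29 members were tested. Of these, 4 were called higher, beside 65 of all 6179 genes, and none lower, beside 58. Relb was not among the 4 (adjusted p = 0.0935). In that fit 7 members had an unadjusted p under 0.05 upwards and 1 downwards, for which the share of all genes is not given here.

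**Figure D1:**
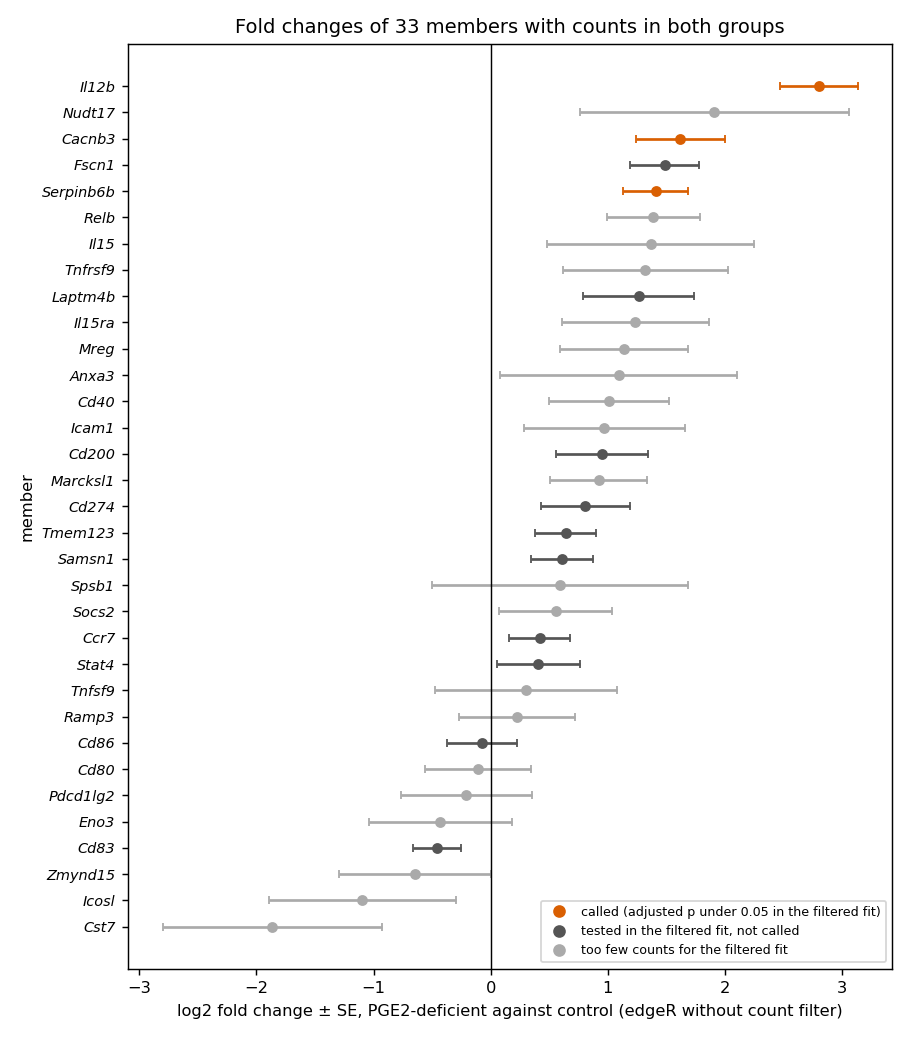
The x axis gives the log2 fold change of PGE2-deficient over control with its SE, from edgeR without a count filter, for the 33 members with counts in both groups (y axis). Orange marks the 3 members called in the filtered fit, dark grey the other tested members and light grey those with too few counts; Il12b has the highest value (2.80) and Cst7 the lowest (−1.87).

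The mean level of the set, taken per mouse as the mean of log2(CPM + 10) over all 35 members, was 5.45, 6.16, 5.60 and 6.00 in control mice 1 to 4. It was 6.67, 7.19, 5.82 and 6.30 in PGE2-deficient mice 1 to 4. PGE2-deficient mice 1, 2 and 4 lay above all control mice, whereas PGE2-deficient mouse 3 lay between control mice 3 and 4. The group means were 5.80 ± 0.33 and 6.49 ± 0.58 (SD, n = 4 each), a difference of 0.69 on the log2 scale, where the median difference over all tested genes was 0.01. Without Il12b it was 0.62. It was 1.05 with a pseudocount of 1 CPM in place of 10 and 0.43 with one of 50 CPM, and 1.36 without the 9 marker-positive libraries.

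Among the cytokine genes, Il12b was higher with PGE2-deficient tumours, by the largest fold change of the tested members. Its level was 0, 86.0, 10.0 and 133 CPM in control mice 1 to 4, and 1199, 439, 86.7 and 198 CPM in PGE2-deficient mice 1 to 4. PGE2-deficient mouse 1 stood far above the other mice, while PGE2-deficient mouse 3 lay within the control range, so the groups overlapped. The means were 57.3 ± 63.6 and 481 ± 501 CPM (SD, n = 4 each), and the log2 fold change was 2.86 ± 0.71 (SE, adjusted p = 0.0259). The call was lost without PGE2-deficient mouse 1 (log2 fold change 1.82, adjusted p = 0.119) and without control mouse 3 (2.53, adjusted p = 0.0724), and by other tools. DESeq2 gave an adjusted p of 0.159, edgeR with robust dispersion 0.26 and limma-voom 0.36, which was the highest of the 20 alternatives (the lowest was 6.35e-14). Il12b was counted in 4 of 12 control pools and in 9 of 11 PGE2-deficient pools, with 28 and 201 counts in all. In the other libraries, those that were not marker-positive, it had 11 counts (42.8 CPM of all counts) in 6 control pools and 165 (411 CPM) in 8 PGE2-deficient pools, too few in the former to be tested there.

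The partner subunit gene Il12a had 2 control counts and no PGE2-deficient count, and Il23a, whose product pairs with the same p40 subunit in interleukin-23, was not analysed here. Il15 encodes a cytokine that sustains NK cells and memory CD8 T cells, and Il15ra encodes the receptor chain that presents it to them. Il15 stood at 7.84 to 20.1 CPM in control mice and at 10.2 to 59.3 CPM in PGE2-deficient mice (5 against 15 counts). Il15ra stood at 8.6 to 39.2 and 20.4 to 107 CPM (11 against 29 counts). Both sets of ranges overlapped, and neither gene was called without a filter (log2 fold changes 1.37 and 1.24, adjusted p of 0.629 and 0.525). Stat4 encodes the transcription factor that IL-12 signals through. It was at 104, 86.0, 151 and 149 CPM in control mice and at 292, 308, 51.0 and 74.3 CPM in PGE2-deficient mice. PGE2-deficient mice 1 and 2 lay above and mice 3 and 4 below every control mouse, and Stat4 was not called (0.45 ± 0.48, adjusted p = 0.679).

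Of the migration and cytoskeletal members none was called, although all 4 had positive fold changes (median 0.77 without a filter). Ccr7 was at 115, 327, 241 and 478 CPM in control mice and at 517, 463, 357 and 305 CPM in PGE2-deficient mice. Control mouse 1 was low and control mice 2 and 4 lay within the PGE2-deficient range, and the log2 fold change of 0.45 ± 0.31 was not called (adjusted p = 0.489). Without the 9 marker-positive libraries it was 1.72 and also not called (adjusted p = 0.185). Fscn1 encodes fascin, which bundles actin in the long protrusions of mature dendritic cells. It was at 69.0, 181, 181 and 141 CPM in control mice and at 458, 819, 91.8 and 396 CPM in PGE2-deficient mice. PGE2-deficient mice 1, 2 and 4 exceeded every control mouse and mouse 3 did not. The log2 fold change of 1.54 ± 0.46 narrowly missed the threshold (adjusted p = 0.0546). It was called in 5 of 23 alternatives, among them the fit without PGE2-deficient mouse 3 (1.91, adjusted p = 0.00257). Marcksl1, an actin regulator, ranged from 40.1 to 92.0 CPM in control and from 51.0 to 249 CPM in PGE2-deficient mice. Samsn1, an adaptor of the actin cytoskeleton and of lymphocyte signalling, ranged from 138 to 387 and from 296 to 581 CPM (0.64 ± 0.31, adjusted p = 0.265). Without the 9 marker-positive libraries its log2 fold change was 1.34 (adjusted p = 0.268).

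No costimulatory gene was called, but of the 8 such members only 1, Cd86, had enough counts to be tested with the filter. Without a filter 5 of the 8 had a positive and 3 a negative fold change, with a median of 0.64. Cd86 was at 184, 250, 151 and 361 CPM in control mice and at 302, 308, 153 and 198 CPM in PGE2-deficient mice. The values overlapped over almost their whole range, with a log2 fold change of −0.04 ± 0.31 (adjusted p = 0.955) whose sign turned in 9 of 23 alternatives (0.34 without the 9 marker-positive libraries). Cd80 was at 80.5, 86.0, 50.2 and 102 CPM against 68.2, 178, 56.1 and 24.8 CPM (−0.11 without a filter, adjusted p = 0.979). The highest and the lowest of these mice both belonged to the PGE2-deficient group. Cd40 was at 34.5, 43.0, 20.1 and 62.7 CPM against 87.7, 214, 30.6 and 49.5 CPM (1.01, adjusted p = 0.537). PGE2-deficient mice 1 and 2 were above all control mice and mice 3 and 4 were within their range. Icosl, the ligand of the T cell receptor ICOS, had the lowest fold change of the group, with control mice between 17.2 and 57.5 CPM and PGE2-deficient mice between 9.75 and 23.7 CPM (−1.09, adjusted p = 0.668). Icam1, the adhesion molecule that binds LFA-1 on T cells, had 10 against 22 counts, Tnfsf9 (4-1BB ligand) 10 against 14 and Tnfrsf9 (4-1BB) 8 against 25. Cd70, the ligand of CD27, had no control count and 9 PGE2-deficient counts in 3 of 11 pools. Set against a floor of 3 counts over the control group, this is at least 2.67-fold higher, and the gene was not called (adjusted p = 0.189). PGE2-deficient mouse 2 pool 3 held 6 of the 9 counts, and the 3 counts without it were 0.97 times the floor.

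Checkpoint ligands and regulators had higher means with PGE2-deficient tumours except for Pdcd1lg2 (median log2 fold change of the 4 without a filter 0.68), and none was called. Cd274 was at 69.0, 120.5, 50.2 and 109.8 CPM in control mice and at 175, 297, 122 and 74.3 CPM in PGE2-deficient mice (0.83 ± 0.42, adjusted p = 0.301). PGE2-deficient mouse 4 lay within the control range and the other 3 above it. Pdcd1lg2 was at 57.5, 77.4, 0 and 70.6 CPM against 48.7, 83.0, 25.5 and 41.3 CPM (−0.21 without a filter, adjusted p = 0.945). Cd200 was at 11.5, 94.6, 141 and 62.7 CPM against 136, 391.5, 61.2 and 90.8 CPM (0.99 ± 0.56, adjusted p = 0.372). Its value was high in PGE2-deficient mouse 2 alone. Socs2, an inhibitor of cytokine signalling, was at 57.5, 103, 20.1 and 39.2 CPM against 87.7, 178, 51.0 and 41.3 CPM (0.55, adjusted p = 0.766), with overlapping groups.

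Cd83 and Relb went in opposite directions. Cd83 encodes a surface protein that stabilises MHC class II and CD86 on dendritic cells. It was at 851, 998, 1044 and 1411 CPM in control mice and at 984, 771, 745 and 718 CPM in PGE2-deficient mice. Only PGE2-deficient mouse 1 lay within the control range, and the log2 fold change of −0.43 ± 0.18 was not called (adjusted p = 0.203). Relb encodes the NF-kB subunit needed for dendritic cell maturation. It was at 69.0, 51.6, 80.3 and 62.7 CPM in control mice and at 224, 332, 66.3 and 132 CPM in PGE2-deficient mice. PGE2-deficient mouse 3 was again the one inside the control range. Relb had 28 and 80 counts and did not pass the filter, and it was called without one (1.39 ± 0.40, adjusted p = 0.0355). With a filter of 20 counts in total over all mice it was not called (1.38, adjusted p = 0.0935).

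The remaining 13 members have less defined roles in dendritic cells, and 2 of them were called higher. Cacnb3, a beta subunit of voltage-gated calcium channels, was at 34.5, 77.4, 50.2 and 94.1 CPM in control mice and at 302, 368, 117 and 99.1 CPM in PGE2-deficient mice. The groups did not overlap, though PGE2-deficient mouse 4 was barely above control mouse 4. The log2 fold change was 1.65 ± 0.45 (adjusted p = 0.0432), and leaving out 1 mouse at a time kept the call in 3 of 8 fits (1.32 to 1.90), those without control mouse 4 or PGE2-deficient mouse 3 or 4. The marker-negative libraries held 11 control counts of Cacnb3 in 6 pools and 91 PGE2-deficient counts in 8 pools (42.8 and 226 CPM of all counts), too few for the test there. Serpinb6b, a serine protease inhibitor, was at 149.5, 258, 90.3 and 235 CPM in control mice and at 478, 1103, 265 and 272 CPM in PGE2-deficient mice. Its groups were separated by less than the spread within either of them. The log2 fold change was 1.45 ± 0.41 (adjusted p = 0.0466), and 2 of 8 fits that each left out 1 mouse kept the call (those without PGE2-deficient mouse 3 or 4), with a value of 0.83 without PGE2-deficient mouse 2. Without the 9 marker-positive libraries it was 1.81 and not called (adjusted p = 0.185). Serpinb6b belongs to a family of similar neighbouring genes, between which reads can be hard to assign. Laptm4b, a lysosomal membrane protein, ranged from 15.7 to 90.3 and from 71.4 to 142 CPM (1.28 ± 0.45, adjusted p = 0.113). Tmem123, a transmembrane protein, ranged from 104 to 381 and from 128 to 747 CPM (0.69 ± 0.41, adjusted p = 0.405). Without the 9 marker-positive libraries its log2 fold change was 1.46 (adjusted p = 0.185).

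The other 9 of these members had too few counts to be tested with the filter, and none was called without it. Mreg (15 against 35 counts), Ramp3 (26 against 34), Nudt17 (2 against 10), Anxa3 (4 against 10) and Spsb1 (4 against 7) had positive fold changes. Slco5a1 had 7 counts, all in the PGE2-deficient group, at least 2.08-fold above a floor of 3 counts over the control group (1.57-fold without PGE2-deficient mouse 1 pool 1). Eno3 (20 against 19), Zmynd15 (20 against 14) and Cst7 (14 against 4) had negative ones. Of the 20 control counts of Zmynd15, 16 lay in mouse 2 pool 3, and of those of Eno3, 12 lay in mouse 1 pool 1. Without that library, a step added after the data were seen, Zmynd15 had 4 against 14 and Eno3 8 against 19 counts, which turned the direction of both. In the marker-negative libraries, 6 control and 8 PGE2-deficient pools, Ramp3 had 5 against 31 counts (19.5 against 77.1 CPM of all counts). Mreg had 4 against 29 there (15.6 against 72.2 CPM of all counts). Cst7, an inhibitor of lysosomal cysteine proteases, was at 20.1 to 43.0 CPM in control and at 0 to 16.5 CPM in PGE2-deficient mice (−1.87, adjusted p = 0.517).

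**Figure D2:**
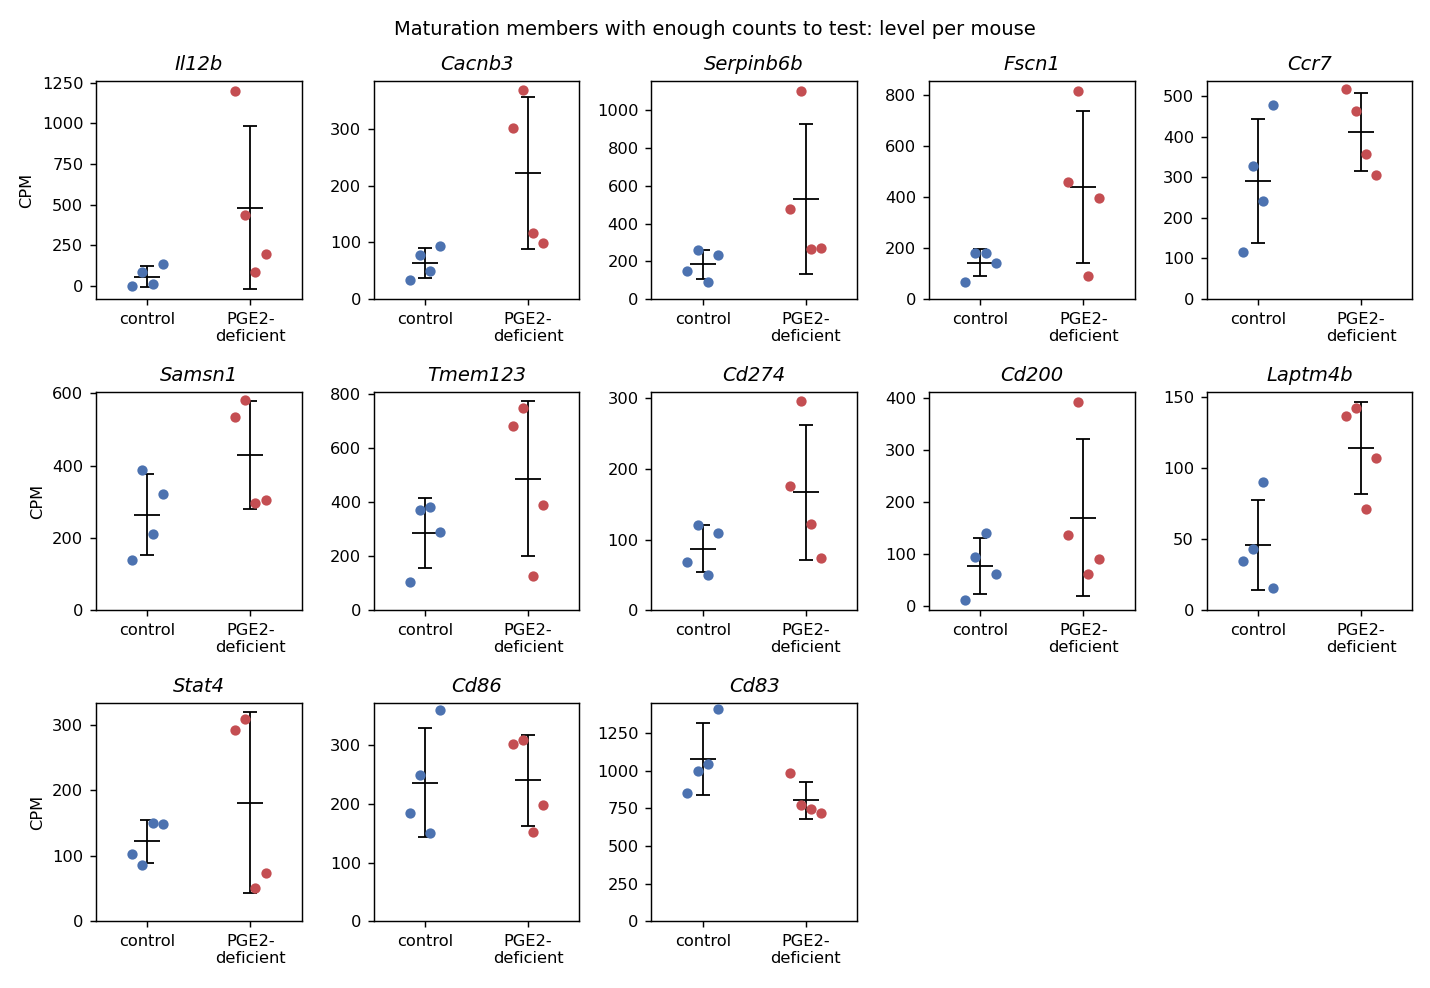
Each panel shows a tested member, with the level in CPM (y axis, linear) of each control (blue) and PGE2-deficient (red) mouse as a point, and the mean with its SD in black (n = 4 each). The groups are apart in Cacnb3 and Serpinb6b and overlap in the other 11 panels, and PGE2-deficient mouse 1 reaches 1199 CPM in Il12b.

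Pools of the same mouse differed strongly in these genes, and mostly together. Over the 23 pools, each member's log2(CPM + 10), as deviation from the mean of its mouse, was set against the mean of the other members. The Pearson correlation had a median of 0.47 and was positive for 34 of the 35 members. Of the 29 members with 20 or more counts, 15 (51.7%) had a correlation over 0.5, where 218 of 6150 other genes of that depth did (3.54%) with a median of −0.04. These are descriptions, since pools of a mouse share the animal and each library has its own depth. The mean member level correlated by −0.23 with the log2 total count of the pool, by −0.13 with its macrophage, pDC and T cell marker counts and by 0.15 with its cDC1 marker counts. With all libraries thinned to 25571 counts the median was 0.42. Without the 9 marker-positive libraries it was 0.27, over the 11 pools of the 5 mice that kept more than 1 pool.

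**Figure D3:**
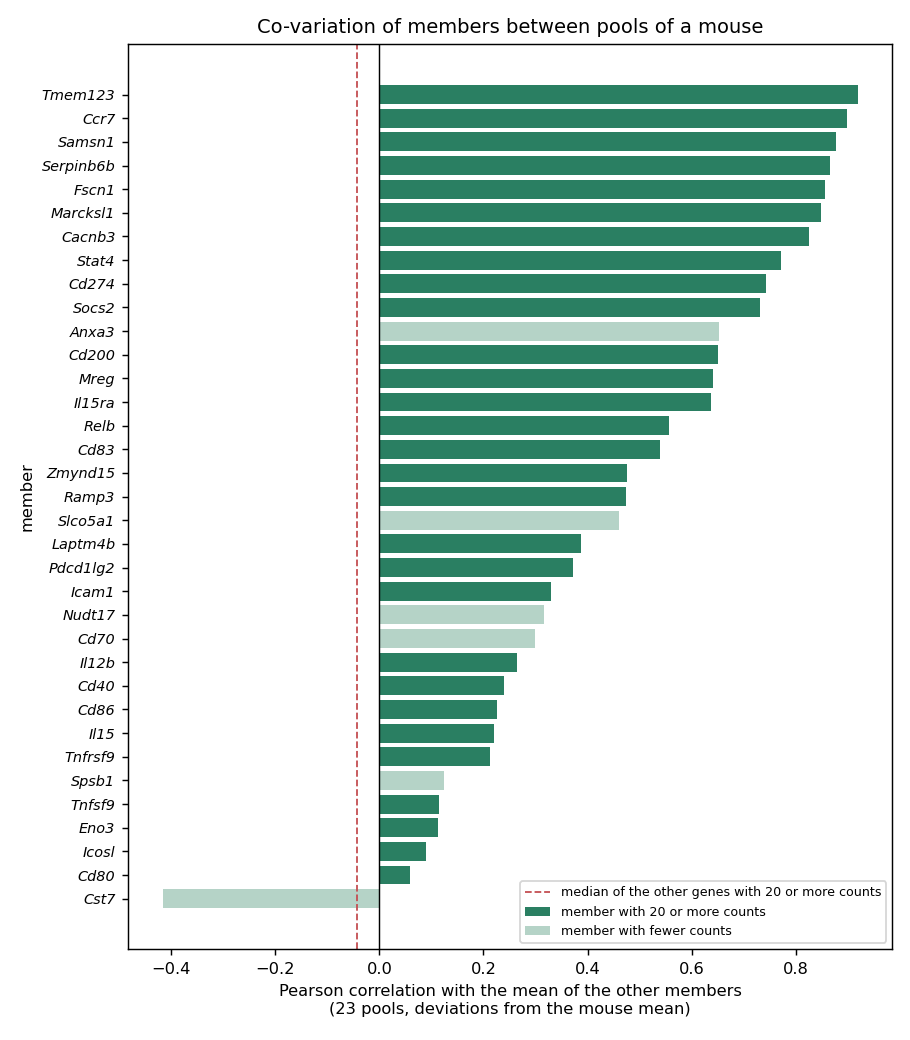
Bars give, for each of the 35 members (y axis), the Pearson correlation of its deviation from the mouse mean with that of the other members over 23 pools (x axis). Dark bars are members with 20 or more counts and the dashed line is the median of the other genes (−0.04); Tmem123 (0.92) and Ccr7 (0.90) lead, and Cst7 (−0.42) is the only member below 0.

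Ccr7 and several cytoskeletal members led this ranking, and the 8 costimulatory genes lay below its median of 0.47. Tmem123 (0.92), Ccr7 (0.90), Samsn1 (0.88), Serpinb6b (0.87), Fscn1 (0.86), Marcksl1 (0.85) and Cacnb3 (0.83) had the highest correlations with the rest. Stat4 (0.77), Cd274 (0.74) and Socs2 (0.73) followed, then Anxa3 (0.65), Cd200 (0.65), Mreg (0.64), Il15ra (0.64), Relb (0.56) and Cd83 (0.54). Of the costimulatory genes, Icam1 was at 0.33, Cd70 at 0.30, Cd40 at 0.24, Cd86 at 0.23, Tnfrsf9 at 0.21, Tnfsf9 at 0.11, Icosl at 0.09 and Cd80 at 0.06. Il12b stood at 0.26 and Il15 at 0.22. Of single pairs, Ccr7 had a correlation of 0.91 with Tmem123, 0.85 with Cacnb3, 0.84 with Samsn1 and 0.71 with Fscn1 and with Relb, but of 0.36 with Il12b and 0.26 with Cd86. Il12b had a correlation of −0.18 with Cd86 and close to 0 with Relb. Several of these members have few counts per pool, which limits how high a correlation can be.

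The pools of single mice show the pattern. Ccr7 was absent from 5 of 12 control pools and from 1 of 11 PGE2-deficient pools, and its SD was 2.82 on the log2 scale between pools of a mouse and 1.08 between the mouse means of a group. A mean over the pools of a mouse varies less than single pools through averaging alone, so such SDs are not directly comparable. In control mouse 1, Ccr7 was at 336 CPM in pool 1 and at 0 in pools 2 and 3. In control mouse 2 it was at 67.5, 67.2 and 929 CPM, and pool 3, the high one, was also highest of that mouse in Serpinb6b (784 CPM) and Cd274 (319 CPM). In PGE2-deficient mouse 4 it was at 330, 0 and 799 CPM, and pool 2, the one without Ccr7, held no count of Fscn1, Il12b, Cd274 or Cd200 either. That pool held 29 counts of T cell markers and none of macrophage or pDC markers. PGE2-deficient mouse 3 pool 3 had 12.8 CPM of Ccr7 beside 823 and 391 CPM in the other pools of that mouse. It held 13 counts of T cell and 14 of NK cell markers. The third marker-positive PGE2-deficient pool, mouse 2 pool 2, had 14 T cell marker counts and the next lowest Ccr7 of the group (73.8 CPM). Its Fscn1 and Il12b were high, at 812 and 886 CPM. The part of T cells in these values was not tested. Control mouse 3 pool 2 had Ccr7 at 0 with 1 count of macrophage, pDC and T cell markers together and 2 counts of cDC2 markers. So had control mouse 4 pool 3, with 1 and 16. Cd83 was counted in all 23 pools and varied less, with an SD of 0.72 between pools and 0.32 between mouse means. The mean member level of a pool ran from 3.88 to 6.51 in the control group (median 5.29) and from 4.49 to 7.48 in the PGE2-deficient group (median 6.31).

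**Figure D4:**
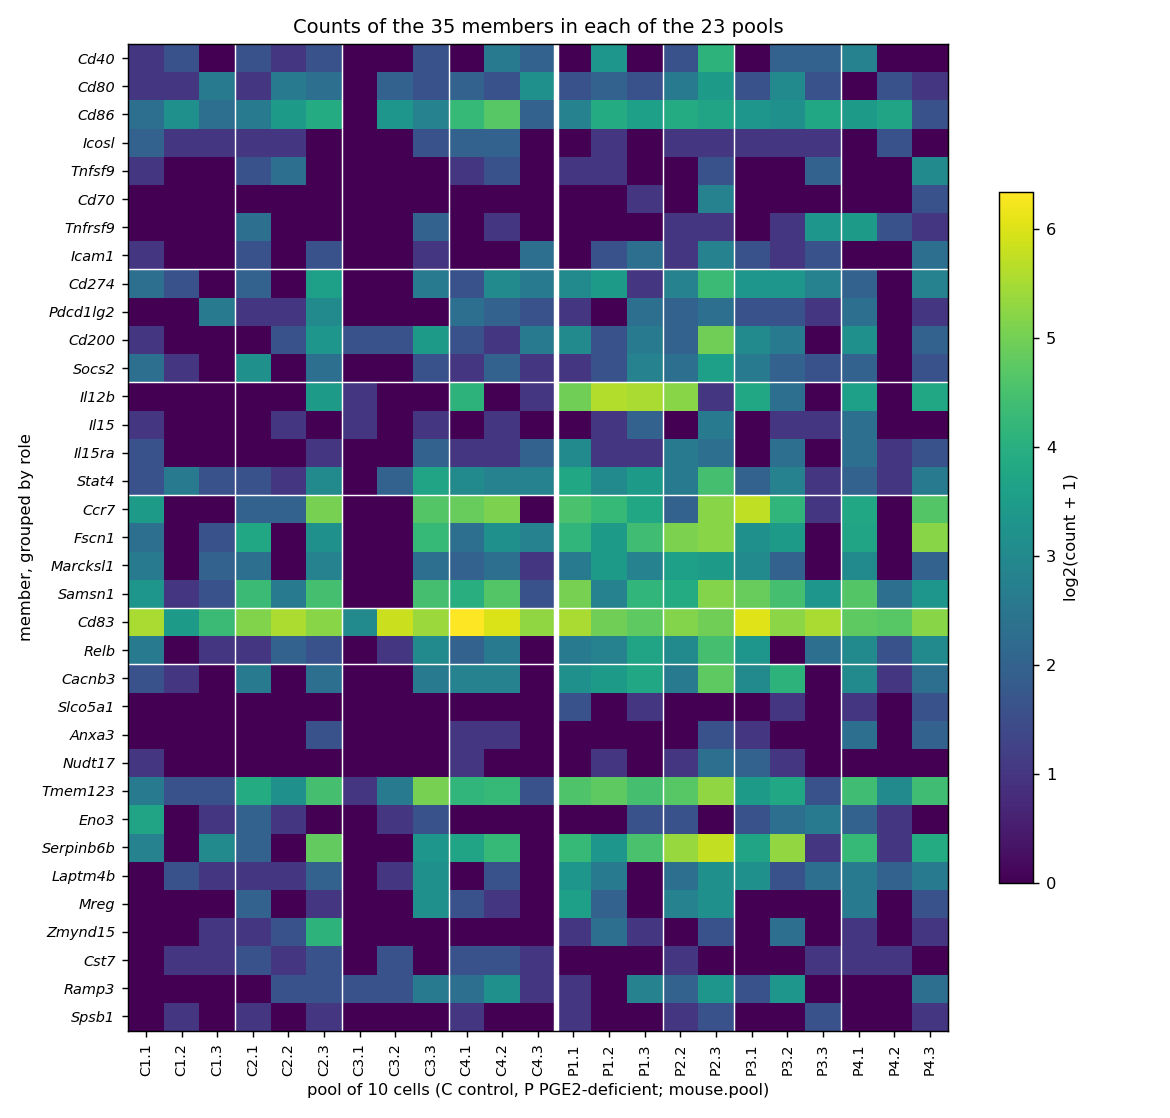
Colour gives log2(count + 1) of each of the 35 members (rows, grouped by role) in each of the 23 pools (columns, C control and P PGE2-deficient, mouse number before and pool number after the point; white lines part mice, groups and roles). Counts are not scaled to depth; columns such as C3.1 and P4.2 are dark over most rows, with 6 and 15 members counted, and P2.3 is bright, with 32.

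Il12b did not follow Ccr7 closely. In the control group it was found in 4 pools, at 290 CPM in mouse 2 pool 3, 47.2 in mouse 3 pool 1, 354 in mouse 4 pool 1 and 28.4 in mouse 4 pool 3. The second and the last of these held no Ccr7, but their Il12b values rest on 1 count each. Control mouse 3 pool 3 and mouse 4 pool 2 had Ccr7 at 634 and 737 CPM and no Il12b count. In PGE2-deficient mouse 1, Il12b was high in all 3 pools, at 1095, 1036 and 1297 CPM. The pools of PGE2-deficient mouse 2 were contrary. Pool 2 had Il12b at 886 and Ccr7 at 73.8 CPM (3 counts), and pool 3 had Il12b at 25.6 (1 count) and Ccr7 at 920 CPM. The latter pool had the highest mean member level of all 23 (7.48) and the highest Cd40 (409 CPM), Relb (537 CPM) and Cd200 (767 CPM). In PGE2-deficient mouse 3 Il12b was at 206, 92.0 and 0 CPM and in mouse 4 at 279, 0 and 433 CPM, where it was absent from the pools with the least Ccr7.

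**Figure D5:**
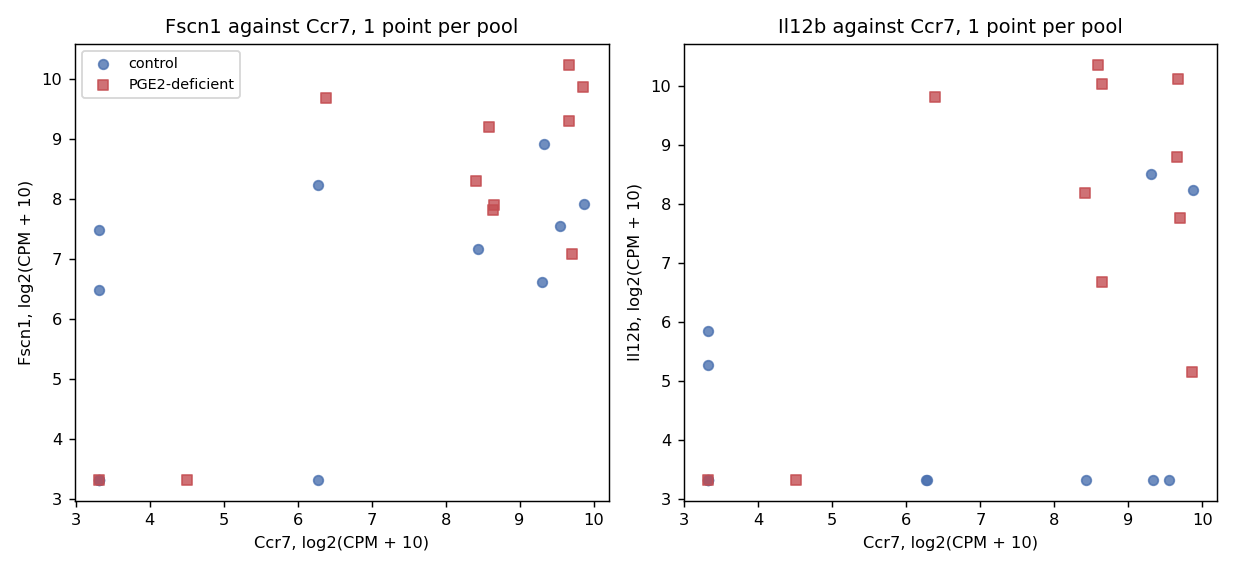
Each point is 1 pool of 10 cells, with Ccr7 on the x axis and Fscn1 (left) or Il12b (right) on the y axis, all as log2(CPM + 10); circles are control and squares PGE2-deficient pools. Within mice the correlation with Ccr7 was 0.71 for Fscn1 and 0.36 for Il12b; the control pools with Ccr7 at 336, 634 and 737 CPM lie at the bottom of the right panel, without an Il12b count.

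Other lists of the same biology were read in the same fit. Of 28 further maturation genes, 25 were in the table and 12 tested, with a median log2 fold change of 0.52. Bcl2l14, a BCL2 family gene, was called higher, at 23, 43.0, 30.1 and 78.4 CPM in control mice and 361, 463, 102 and 99.1 CPM in PGE2-deficient mice (2.37 ± 0.54, adjusted p = 0.0144), and none was lower. The chemokine genes Ccl22 and Ccl17, whose products attract CCR4-bearing T cells, had 23 against 135 and 3 against 36 counts. PGE2-deficient mice 1 and 2 carried most of the Ccl22 counts, with 633 and 629 CPM against 61.2 and 41.3 CPM in mice 3 and 4. Both failed the filter and were called without it (log2 fold changes 2.49 and 3.41, adjusted p of 1.17e-08 and 0.000945). With the filter of 20 counts in total Ccl22 was called (adjusted p = 0.0245) and Ccl17 was not (adjusted p = 0.089). PGE2-deficient mouse 2 pool 2 held 24 of the 36 Ccl17 counts, leaving 12 without it, and 45 of the 135 Ccl22 counts, leaving 90. Without a filter 6 of the 25 genes were called higher (0.826% of all genes) and none lower (0.631%). Beside Ccl22, Ccl17 and Bcl2l14 these were Fas (0 against 18 counts, adjusted p = 0.0137), Gadd45b (0.00409) and Tnfrsf4 (0.0362). With the filter of 20 counts in total Gadd45b (0.0778) and Tnfrsf4 (0.0703) were not called, and Fas did not reach it. Of the further IL-12 family and pathway genes 10 were tested, with a median of 0.18, 2 called higher and none lower. These were Irf8, a transcription factor of cDC1 that acts on Il12b (0.85 ± 0.21, adjusted p = 0.0215), and Tlr3, which senses double-stranded RNA in endosomes (1.25 ± 0.35, adjusted p = 0.0448). Without a filter 3 of 19 genes were called higher, these 2 and Irf1 (1.79, adjusted p = 0.000393), and none lower. Irf1 was not called with the filter (adjusted p = 0.0795) or with that of 20 counts in total (0.07). Of the genes of antigen uptake and the immature state 7 were tested, with a median of 0.42, and Xcr1 (2.16 ± 0.38, adjusted p = 0.00242) and Tlr3 were called higher and none lower. Irf8, Xcr1 and Tlr3 also belong to the 12 cDC1 marker genes. The summed level of these 12 was higher in each PGE2-deficient mouse than in any control mouse. Without a filter Lyz2, the lysozyme gene of myeloid cells, was called lower (−0.88, adjusted p = 0.0317; −0.82 and adjusted p = 0.372 with the filter), and Cd36, a scavenger receptor gene, higher (2.55, adjusted p = 0.00918). With the filter of 20 counts in total neither was called (adjusted p = 0.368 for Lyz2 and 0.052 for Cd36). The 9 tested genes of MHC class II had a median of −0.24 and none was called in either direction. H2-Eb1 was at 4268, 4861, 3914 and 3936 CPM in control mice and at 3460, 3298, 3332 and 3384 CPM in PGE2-deficient mice, without overlap (−0.33 ± 0.12, adjusted p = 0.132). H2-Aa, at 7155 to 8290 and 6216 to 7117 CPM, did not overlap either (−0.28 ± 0.12, adjusted p = 0.208). The other tested genes of this list overlapped, and 5.73% of all tested genes were lower without overlap.

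Between pools of a mouse, these lists differed in how they went with the maturation members. The 22 further maturation genes with 20 or more counts had a median correlation of 0.36 with the mean of the members, and 10 of them exceeded 0.5. The 16 IL-12 pathway genes had a median of −0.06 and the 12 immature-state genes of 0.07. All 10 MHC class II genes were below 0, with a median of −0.27, the lowest being H2-DMb1 (−0.53), which encodes a subunit of the peptide-loading chaperone, and March1 (−0.48), a ligase that removes MHC class II and CD86 from the surface. Of all other tested genes, those most like the members were Ly75 (0.82), which encodes the uptake receptor DEC-205, Gpr132 (0.82), a G protein-coupled receptor, Traf1 (0.79), an adaptor of TNF receptor signalling, Bcl2l14 (0.79) and Pcgf5 (0.78). They were picked after their values were seen. Traf1 had a log2 fold change of 0.03 between the groups (adjusted p = 0.961) and Gpr132 of 0.16 (adjusted p = 0.886). Bcl2l14 was called higher, as given above, and Pcgf5 (0.97, adjusted p = 0.112) and Ly75 (0.67, adjusted p = 0.424) were not called.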

How the data were processed

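The authors deposited 1 table of raw counts per gene and library, with no normalization. Per the submitters' processing notes, STAR 2.5.4b and GRCm38 (mm10) were used. The sources used here do not give the counting program, its strand setting or whether reads or molecules were counted, so floors for counts of 0 cover counting error only. By identifier, 16 symbols that a spreadsheet had turned into dates were restored.

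Libraries of a mouse, technical replicates per the labels, were summed. The 2076 genes passing filterByExpr (minimum count 10; 80.6% of counts) were tested in R 4.3.3 with the quasi-likelihood test of edgeR 4.0.16 (two-sided, scaled by TMM), with p adjusted by Benjamini-Hochberg over these genes and a threshold of 0.05. SEs were derived from fold change and F. Scaled counts (CPM) use the total over tested genes, TMM-scaled for mice and unscaled for pools, and for marker levels the total over all genes. The biological coefficient of variation was 21.8%. In 5 simulations at these depths (2141 genes), 55.8% of 2-fold changes and 86.6% of 4-fold changes were found, and 3.77% of calls were false. Every gene was simulated with the same coefficient of variation, 21.8%, so these shares hold for that spread only. They do not cover a more widely scattered gene such as Il12b (481 ± 501 CPM, SD, in PGE2-deficient mice). No simulation was run with such a spread. Members, lists and the rule for naming genes were chosen with earlier results of these data known. By that rule all members were accounted for, and further lists gave up to 4 called genes, or up to 2 by p, beside Il12a, Il23a, Ccl22, Ccl17 and Bcl2l14. Alternatives were other scalings and filters, DESeq2 1.42.0, robust dispersion, limma-voom (limma 3.58.1) over libraries, the mouse number as a block, and fits without a mouse, a technical replicate, marker-positive libraries, or mitochondrial and ribosomal RNA rows. Python 3.11.15 and matplotlib 3.10.9 served for summaries and figures.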

Additional observations from a re-analysis of the deposited data

How the results depend on the processing

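At this depth 22 of the 35 members could not be tested with the filter. Members called higher numbered 3, against 5 without a filter, 1 with DESeq2 or robust dispersion, 0 with limma-voom, with a minimum count of 20 or without the 9 marker-positive libraries (where 8 members were tested), and 0 to 5 without a mouse or technical replicate. The 5 came without PGE2-deficient mouse 3, and none was called without control mouse 3, PGE2-deficient mouse 1 or technical replicate 2. Il12b and Cacnb3 did not reach the filter with a minimum count of 20 (7 members tested) or without technical replicate 2 (9 tested). Nor did they without the marker-positive libraries, so neither could be called in these fits. Cacnb3 was also not tested without technical replicate 1 or 3. No alternative called a member lower. Over all genes, 56 were higher and 47 lower. Without a filter these were 110 and 84, with a minimum count of 20 they were 32 and 25, and without the marker-positive libraries 18 and 6. Lower genes numbered 24 without scaling factors, 79 with limma-voom and 28 with the replicate block. Without a mouse or technical replicate 9 to 67 were higher and 5 to 45 lower. The cause of these differences was not tested. The difference in mean member level was 1.05 and 0.43 with pseudocounts of 1 and 50 CPM, 0.46 to 0.92 without a mouse and 1.36 without the marker-positive libraries. The sign of Cd86 turned without scaling factors (0.031), with limma-voom (0.072), with the replicate block (0.013), without the marker-positive libraries (0.34) and in 5 of the fits without a mouse or technical replicate, which ran from −0.21 to 0.24, and that of Stat4 with limma-voom (−0.15). Mouse numbers were not treated as pairs. Deviations of same-numbered mice correlated by −0.09 to 0.10, which cannot show whether such mice were processed together. Only control mouse 2 correlated best with the PGE2-deficient mouse of its own number. With the replicate block 2 members were called higher, Il12b and Serpinb6b, while Cacnb3 had an adjusted p of 0.0551 (log2 fold change 1.60).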
